A study of Homo sapiens with 6 samples.

Results

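CD98 is a cell surface complex of 1 heavy chain, encoded by SLC3A2, and 1 of several light chains that do the transport. Its genes and those of other amino acid carriers were followed in SU-DHL-8, an established human line of diffuse large B-cell lymphoma labelled as wild type. Cells were given beta-sitosterol, a plant sterol, at 15 µM for 24 h, and controls received only the solvent DMSO for the same time. Each group had 3 libraries of total RNA, so there were 6 in all, and all came from the same line. The submitters describe replicate experiments, and p-values measure the spread between these samples of 1 line. The set holds 10 genes of 65746 in the count table, chosen by name with earlier results of this comparison known, namely that SLC3A2 and SLC7A11 had been called higher and SLC7A5 lower. For that reason the members' values in this comparison are given as a description, with no p.

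Heavy and light chains of CD98 are joined by a disulfide bond, and the heavy chain carries the pair to the plasma membrane. With SLC7A5 (LAT1) it exchanges large neutral amino acids such as leucine for glutamine. With SLC7A6 (y+LAT2) it exchanges cationic and neutral amino acids, and with SLC7A11 (xCT) it takes up cystine for glutamate, which feeds glutathione synthesis. The other members work without CD98. SLC7A1 carries arginine and lysine, SLC1A5 and SLC1A4 exchange small neutral amino acids (glutamine among the substrates of SLC1A5), SLC38A1 and SLC38A2 bring in glutamine and alanine with sodium, and SLC43A1 is a facilitator of large neutral amino acids. Several of these genes are known targets of ATF4, the transcription factor of the amino acid response, of NRF2 (NFE2L2), that of the oxidative stress response, or of MYC.

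Promoter windows are shown because these 3 factors bind known motifs and the members moved in opposite directions. RefSeq windows on GRCh38.p14, from 250 bases before to 50 after an annotated start, were found for 9 of the 10 members, 16 windows in all. No window was available for SLC7A11, so it was not searched. Both strands were searched for TGATGNAA, the core of the ATF4 element, TGACNNNGC, that of the antioxidant element bound by NRF2, and CACGTG, the E-box bound by MYC. The printed windows lie at chr11:62881449-62881748 on the plus strand (SLC3A2), chr16:87869458-87869757 on the minus strand (SLC7A5), chr11:57515653-57515952 on the minus strand (SLC43A1) and chr2:64989149-64989448 on the plus strand (SLC1A4). They read 5′ to 3′ along the gene, with matches in capitals.
SLC3A2: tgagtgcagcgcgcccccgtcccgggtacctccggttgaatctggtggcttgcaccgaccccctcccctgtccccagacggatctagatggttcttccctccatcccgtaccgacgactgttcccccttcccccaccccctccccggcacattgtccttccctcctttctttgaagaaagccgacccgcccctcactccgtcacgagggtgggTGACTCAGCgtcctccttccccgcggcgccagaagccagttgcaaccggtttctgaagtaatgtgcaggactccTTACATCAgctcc
SLC7A5: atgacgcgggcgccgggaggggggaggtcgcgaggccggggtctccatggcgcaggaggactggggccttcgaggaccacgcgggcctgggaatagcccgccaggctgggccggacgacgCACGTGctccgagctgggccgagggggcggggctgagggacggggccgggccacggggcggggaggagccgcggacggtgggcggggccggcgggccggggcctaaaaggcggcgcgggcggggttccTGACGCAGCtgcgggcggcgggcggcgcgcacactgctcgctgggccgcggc
SLC43A1: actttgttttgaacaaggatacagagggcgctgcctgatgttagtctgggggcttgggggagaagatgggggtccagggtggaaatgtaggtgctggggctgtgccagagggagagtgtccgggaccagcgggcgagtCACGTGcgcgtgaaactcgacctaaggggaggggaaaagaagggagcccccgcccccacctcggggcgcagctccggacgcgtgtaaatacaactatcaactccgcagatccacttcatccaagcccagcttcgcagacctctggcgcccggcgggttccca
SLC1A4: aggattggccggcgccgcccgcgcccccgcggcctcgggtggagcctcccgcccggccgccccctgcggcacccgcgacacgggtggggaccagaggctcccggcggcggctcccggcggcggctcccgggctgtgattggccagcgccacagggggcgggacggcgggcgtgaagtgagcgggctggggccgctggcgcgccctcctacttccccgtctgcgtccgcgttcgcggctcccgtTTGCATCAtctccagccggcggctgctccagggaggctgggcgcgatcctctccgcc

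In SLC3A2, TGACTCAGC began 37 bases before the start and matched the antioxidant letters, and TTACATCA, a reverse-strand match to the ATF4 letters, began 37 bases after it. The opening letters of the former, TGACTCA, are also those of the AP-1 site; they stood in 2 of the 16 windows and in 4.95% of all 35116 windows, a search added after the windows were seen. The other SLC3A2 windows held 0 matches to the 3 motifs. In SLC7A5 an E-box began 130 bases before the start and TGACGCAGC 2 bases before it. SLC43A1 held an E-box, 112 bases before the start. TTGCATCA, a reverse-strand match to the ATF4 letters, began 7 bases before the start in SLC1A4. The ATF4 letters stood in 5 of the members' 16 windows (SLC3A2, SLC7A1, SLC1A4, SLC1A5 and SLC38A1), against 3.62% of all windows. The antioxidant letters stood in 5 (SLC3A2, SLC7A5, SLC7A6, SLC7A1 and SLC1A5), against 13.4%, and the E-box in 3 (SLC7A5, SLC1A5 and SLC43A1), against 7.26%. Matches in SLC1A5 lay in its windows at chr19:46784765-46785064 and chr19:46787244-46787543. Its window nearest the 5′ end of the gene, chr19:46788545-46788844, held 0, as did the other window of SLC1A4, SLC38A1 and SLC43A1. No matches of the 3 searched motifs overlapped one another. Of the members called higher after treatment, only SLC3A2 stood under the ATF4 and antioxidant letters, and only SLC43A1 under the E-box. SLC7A11, also called higher, had no window and was not searched. Members called lower stood under each motif too, under the E-box only SLC7A5.

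Library totals ran from 26453101 to 35565163 counts. Levels of 1 gene are counts scaled to library size with TMM factors (CPM), given as mean ± SD of 3 libraries. DMSO libraries were more spread than treated ones (median SD 0.27 against 0.09 log2 units), and DMSO replicate 2 stood apart, correlating across genes at 0.982 and 0.972 (log2 CPM) with the other DMSO libraries, which correlated at 0.991. B cell genes summed to 1772 to 2468 CPM in DMSO and 2236 to 2403 CPM in treated libraries, with 6 of 6 above the detection filter, though CD79A and MS4A1 rose (log2 fold changes 1.05 and 2.23), PAX5 fell (-1.67) and the other 3 were not called. T cell markers summed to at most 1.99 CPM in any library, with CD3E, CD3G and CD2 at 0, and myeloid markers to at most 8.47 CPM. Epithelial and stromal markers summed to at most 1.96 CPM, though COL1A1 went from 0 counts in DMSO to 0.66 ± 0.23 CPM. In bulk RNA, fewer cells of a type and less RNA per cell cannot be told apart.

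After beta-sitosterol the heavy chain gene SLC3A2 and the cystine carrier SLC7A11 were higher, while the leucine carrier SLC7A5, the main CD98 light chain by RNA, was lower. SLC43A1 was also higher. SLC7A1, SLC7A6 and SLC38A1 were lower, and SLC1A4, SLC1A5 and SLC38A2 did not pass the threshold. All 10 members passed the filter on low counts, and by edgeR's quasi-likelihood test fitted on all 11525 tested genes at an adjusted p of 0.05, 3 were called higher and 4 lower. In the same fit 40.8% of all tested genes were called, 19.0% higher and 21.8% lower. The members' values lay apart between groups, with no overlap, for 8 of 10, against 56.1% of all tested genes. Since the members were chosen with this comparison known, nothing is read from those shares. On log2(TPM + 1), from the authors' TPM, the split over all genes was 713 higher and 2226 lower, against 2185 and 2512 in counts. SLC3A2, SLC43A1 and SLC38A1 kept their direction there but not their call. The median log2 fold change was -0.26 over the members and -0.04 over all tested genes. Summed over the 10 members, reads made up 3295 to 4149.8 CPM in DMSO and 3729 to 3833 CPM in treated libraries, ranges that overlap.

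**Figure D1:**
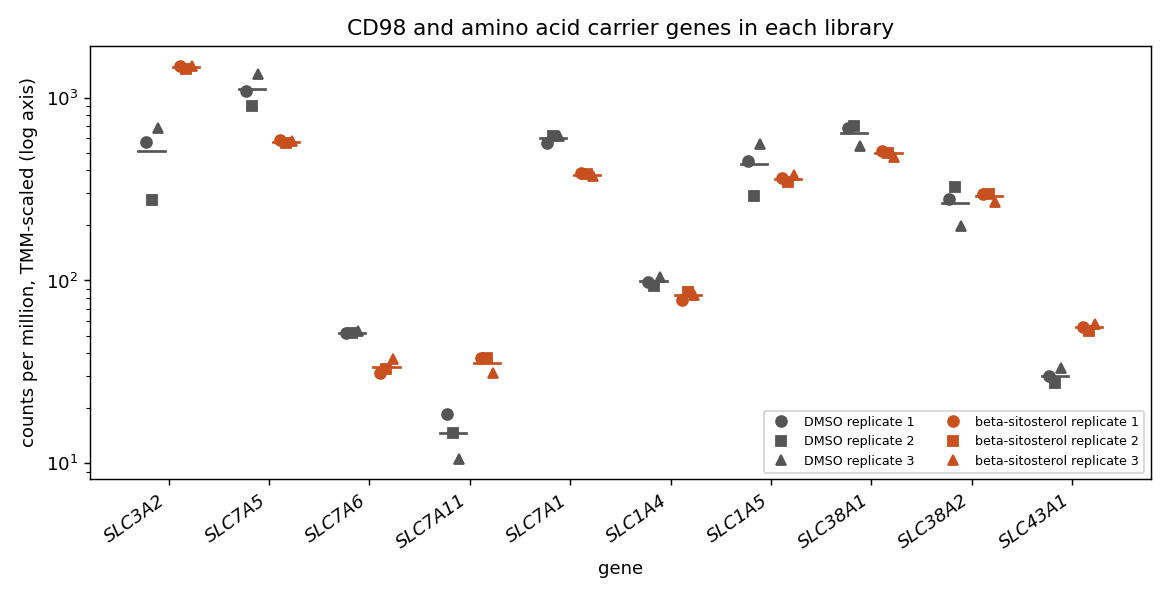
TMM-scaled CPM (log axis) of the 10 carrier genes in each of the 6 libraries, DMSO in grey and beta-sitosterol in orange; horizontal bars are means of 3 libraries. SLC3A2, SLC7A11 and SLC43A1 lie higher in all 3 treated libraries than in any DMSO library, and SLC7A5, SLC7A6, SLC7A1, SLC1A4 and SLC38A1 lie lower.

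SLC3A2 (ENSG00000168003, chromosome 11, 62856102 to 62888875) stood at 571, 276 and 684 CPM in DMSO replicates 1, 2 and 3 and at 1491, 1436 and 1496 CPM in treated replicates 1, 2 and 3. Every treated library held more than any DMSO library, and DMSO replicate 2 was far below the other DMSO libraries. The log2 fold change was 1.53 ± 0.29 (SE), from 510.3 ± 211 to 1474 ± 33.2 CPM, a 2.89-fold rise of the mean. Without DMSO replicate 2 it was 1.23. The spread of this gene in DMSO, a coefficient of variation of 41.3%, was the widest among the members, against 2.25% in treated libraries.

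SLC7A5 (ENSG00000103257, chromosome 16, 87830023 to 87869488) went the other way. Its DMSO values were 1083, 902 and 1349 CPM and its treated values 583, 563 and 578 CPM. All treated libraries lay below all DMSO libraries, and within DMSO replicate 2 was again lowest and replicate 3 highest. The log2 fold change was -0.95 ± 0.15, from 1111 ± 225 to 574 ± 10.1 CPM, which left the mean at 0.52 times that of DMSO. Its exons share 271 bases with an annotated antisense gene, and whether counting used strand is not given in the sources used here.

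SLC7A11 (ENSG00000151012, chromosome 4, 138164097 to 138242349) was far less abundant. It stood at 18.7, 14.7 and 10.5 CPM in DMSO and at 37.7, 37.5 and 31.4 CPM after beta-sitosterol. The groups lay apart, and replicate 3 was lowest in both. The log2 fold change was 1.28 ± 0.21, from 14.6 ± 4.10 to 35.5 ± 3.60 CPM, and was 1.28 as well without DMSO replicate 2. Its exons share 865 bases with the antisense gene SLC7A11-AS1, which was listed at 0 in all libraries.

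SLC7A6 (ENSG00000103064, chromosome 16, 68264516 to 68301823) was tight in DMSO, at 51.4, 51.4 and 52.8 CPM, and stood at 31.1, 32.8 and 37.3 CPM in treated libraries. All treated values were lower (log2 fold change -0.62 ± 0.12). This value is uncertain, since 3371 bases of its exons overlap those of SLC7A6OS on the opposite strand. SLC7A6OS itself stood at 24.0 ± 2.29 and 26.3 ± 1.999 CPM (edgeR adjusted p = 0.46).

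**Figure D2:**
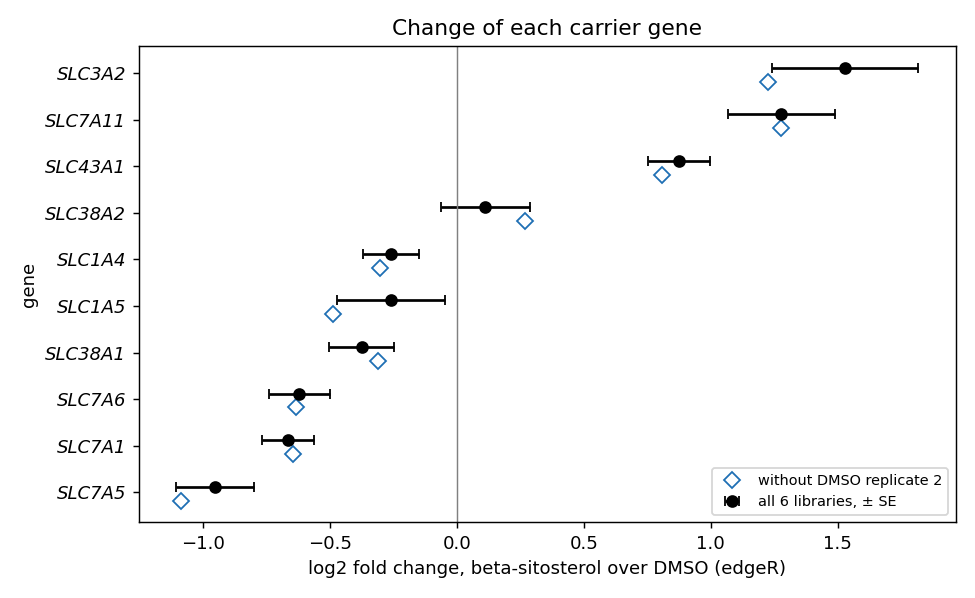
Log2 fold change of beta-sitosterol over DMSO for the 10 genes, ordered by size: black points with SE bars use all 6 libraries, open diamonds leave out DMSO replicate 2. SLC3A2 has the highest value (1.53) and SLC7A5 the lowest (-0.95), and leaving out DMSO replicate 2 moves SLC3A2 to 1.23 and SLC1A5 from -0.26 to -0.49 (0.004 without DMSO replicate 3, not drawn).

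Among the carriers that do not pair with CD98, SLC7A1 (ENSG00000139514, chromosome 13, 29509410 to 29595688), for arginine and lysine, stood at 562, 618 and 618 CPM in DMSO and at 385, 379.9 and 371 CPM after treatment. The groups lay well apart (log2 fold change -0.66 ± 0.10), with little spread in either. SLC43A1 (ENSG00000149150, chromosome 11, 57484534 to 57515786), a carrier of leucine and other large neutral amino acids, stood at 29.9, 27.5 and 33.2 CPM in DMSO and at 55.7, 52.9 and 57.6 CPM after treatment. It was higher in all treated libraries (log2 fold change 0.88 ± 0.12). SLC7A5, which also carries large neutral amino acids and is the more abundant by TPM, was called in the opposite direction.

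For SLC38A1, SLC38A2, SLC1A5 and SLC1A4 the differences were smaller. SLC38A1 (ENSG00000111371, chromosome 12, 46183063 to 46270017) stood at 682, 700.2 and 543 CPM in DMSO and at 511, 500.2 and 475 CPM in treated libraries. Groups did not overlap (log2 fold change -0.37 ± 0.13), but the lowest DMSO value was close to the highest treated one, and the call was lost under 10 of 15 alternatives. SLC38A2 (ENSG00000134294, chromosome 12, 46358189 to 46372867) overlapped between groups, at 278, 323 and 198 CPM against 298, 296 and 270.2 CPM (log2 fold change 0.11 ± 0.17, and -0.02 without DMSO replicate 3). SLC1A5 (ENSG00000105281, chromosome 19, 46774883 to 46788594) stood at 452, 289 and 556 CPM in DMSO and at 362, 344 and 377 CPM in treated libraries. DMSO replicate 2 lay below all treated values, the other DMSO libraries above them. Its exons share 780 bases with an annotated antisense gene. Its log2 fold change was -0.26 ± 0.21, and it rested on single libraries: it was -0.49 and called lower without DMSO replicate 2, and 0.004 without DMSO replicate 3. SLC1A4 (ENSG00000115902, chromosome 2, 64988477 to 65023865) stood at 98.5, 93.5 and 105 CPM against 78.7, 86.5 and 83.2 CPM. Its groups did not overlap, yet the log2 fold change of -0.26 ± 0.11 missed the threshold, and it too was called lower without DMSO replicate 2 (-0.30). Without that library 3 members were called higher and 6 lower, while calls over all genes grew as well. Those numbered 3091 higher and 3549 lower of 11724 tested, against 2185 and 2512 of 11525 with all 6 libraries.

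Levels of different genes were compared per length, on the deposited TPM scale, within each library. SLC7A5 had the highest TPM of the 10 members in all 6 libraries, at 576 ± 225 TPM in DMSO and 238 ± 6.42 TPM after beta-sitosterol. SLC3A2, at 103 ± 57.3 TPM in DMSO, ranked 5, 6 and 4 among the members in DMSO replicates 1, 2 and 3, and at 229 ± 6.29 TPM it ranked 2 in each treated library. The TPM ranges of SLC7A5 and SLC3A2 overlapped in treated libraries. SLC7A1 and SLC1A5 followed, at 169 ± 5.58 and 145 ± 6.14 TPM after treatment and 325 ± 71.8 and 221 ± 106 TPM in DMSO. SLC38A1 (121 ± 25.6 and 77.4 ± 3.95 TPM), SLC38A2 (61.4 ± 11.8 and 56.1 ± 3.75 TPM) and SLC1A4 (36.6 ± 10.2 and 24.9 ± 0.99 TPM) were intermediate, in DMSO and treated libraries in turn. SLC43A1 (12.9 ± 3.94 and 19.2 ± 0.77 TPM), SLC7A6 (7.94 ± 1.93 and 4.22 ± 0.34 TPM) and SLC7A11 (6.59 ± 2.61 and 13.1 ± 1.48 TPM) were lowest. SLC7A6 and SLC7A11 did not differ beyond their spread in DMSO, while in treated libraries SLC7A11 was above SLC7A6 in each. Relative to the mean, the SD in DMSO was wider on this scale than in CPM for all members but SLC38A2. TPM over all listed genes summed to 64.6%, 39.5% and 69.2% of the full scale in DMSO replicates 1, 2 and 3, and to 57.0% to 57.8% in treated libraries; the part of this in the spread was not tested.

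A ratio within a library does not depend on that sum. The TPM ratio of SLC3A2 to SLC7A5 was 0.20, 0.11 and 0.19 in DMSO replicates 1, 2 and 3 and 0.96, 0.96 and 0.97 in treated replicates. The heavy chain thus went from a minor partner of SLC7A5 by RNA to near parity, a log2 change of 2.56 that was larger than the spread in either group, with no overlap. For SLC7A11 the ratio was 12.8, 7.90 and 27.3 in DMSO and 16.6, 16.1 and 20.1 in treated libraries. Those groups overlapped, and the log2 change of 0.32 fell within the spread of DMSO. It was -0.10 without DMSO replicate 2 and 0.80 without DMSO replicate 3, the library whose ratio lay above all treated ones; the other DMSO ratios lay below them. For SLC7A6 it went from 12.1 ± 4.90 to 54.4 ± 4.83, with no overlap.

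**Figure D3:**
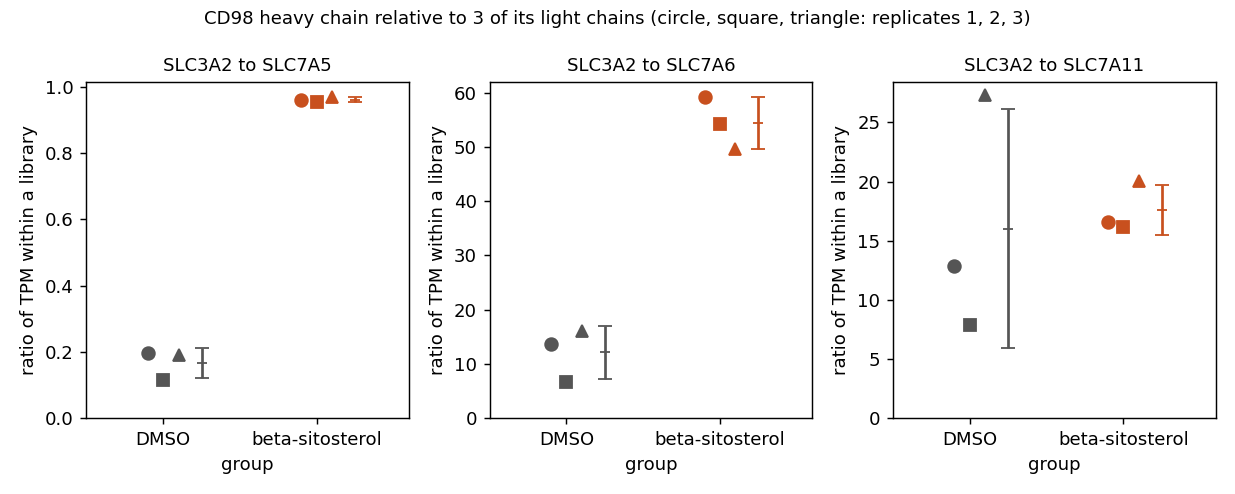
Ratio of deposited TPM of SLC3A2 to SLC7A5, SLC7A6 and SLC7A11 within each library; symbols are libraries and bars at the side are mean ± SD of 3. The ratio to SLC7A5 moves from 0.17 ± 0.046 to 0.96 ± 0.008 with no overlap, whereas the ratio to SLC7A11 overlaps between groups (16.0 ± 10.1 and 17.6 ± 2.14).

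The size of these ratios, though not their change, depends on the gene length used. The deposited TPM implied a length of 10373 bases for SLC3A2 once implied lengths were scaled to those of GENCODE v29 by the median over genes, against 5178 bases of exons in that annotation, and 3887 against 4745 bases for SLC7A5. With GENCODE v29 lengths, an alternative added after the data were seen, the mean ratio of SLC3A2 to SLC7A5 was 0.41 in DMSO and 2.35 after beta-sitosterol, SLC3A2 ranked 1 among the members in each treated library, and SLC7A11 ranked below SLC7A6 in all 6. The statement of near parity therefore holds only on the deposited scale.

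Light chains were also set against one another, as shares of the summed TPM of 6 CD98 light chains (SLC7A5, SLC7A6, SLC7A7, SLC7A8, SLC7A10 and SLC7A11). SLC7A5 held 96.6%, 96.4% and 97.6% in DMSO and 91.8%, 91.5% and 92.3% after treatment. SLC7A11 held 1.49%, 1.40% and 0.68% in DMSO and 5.29%, 5.42% and 4.47% after treatment. Both shares lay apart between the groups, in opposite directions, while SLC7A5 kept the largest share in each library. SLC7A6, the other member, took 1.40 ± 0.25% and 1.63 ± 0.16%, shares that overlapped. SLC7A7, a light chain for cationic amino acids that is no member, took 0.55 ± 0.02% and 1.46 ± 0.02%. Its own TPM overlapped between groups (3.56, 1.98 and 4.20 in DMSO, 3.91, 3.75 and 3.65 after treatment), while SLC7A5, most of the sum, was lower. In CPM, however, SLC7A7 did not overlap between groups (16.6, 14.4 and 19.6 in DMSO, 24.8, 24.3 and 23.9 after treatment). The size of these shares depends on gene length too: the mean TPM ratio of SLC7A5 to SLC7A11 was 92.5 and 18.3 in DMSO and treated libraries, but 168 and 33.1 with GENCODE v29 lengths.

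**Figure D4:**
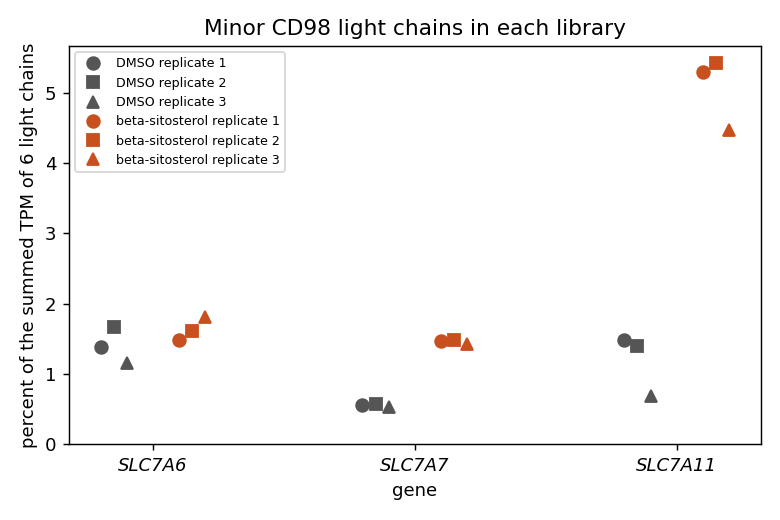
Share of 3 minor light chains in the summed TPM of 6 CD98 light chains, in percent, for each library, DMSO in grey and beta-sitosterol in orange. SLC7A11 lies at 0.68% to 1.49% in DMSO and 4.47% to 5.42% after treatment, SLC7A7 moves from about 0.55% to 1.46%, and SLC7A6 overlaps.

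Between groups the direction of SLC3A2 was that of SLC7A11, which was known when the members were chosen. The root mean square difference of centred log2 CPM over the 6 libraries, where 0 is an identical pattern, was 0.55 log2 units between SLC3A2 and SLC7A11 and 1.31 between SLC3A2 and SLC7A5. SLC43A1 was the nearest member to SLC3A2, at 0.50. This measure takes in the difference between groups, so the order of SLC7A11 and SLC7A5 in it follows from the choice of members and is a description only. Without DMSO replicate 2, an alternative added after seeing the data, these differences were 0.36, 1.13 and 0.21. Among the 8743 tested genes that averaged 5 CPM or more, SLC7A11 ranked 879 in likeness to SLC3A2 and SLC7A5 ranked 7881.

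Within DMSO, SLC3A2 deviated from its group mean by 0.26, -0.79 and 0.52 log2 units in replicates 1, 2 and 3. SLC1A5 deviated by 0.12, -0.53 and 0.41 and SLC7A5 by -0.02, -0.28 and 0.30, so these 3 genes had the same order of libraries. SLC43A1 (-0.01, -0.13 and 0.14), SLC1A4 (-0.01, -0.08 and 0.09) and, by a narrow margin, SLC7A6 had that order too, so it was shared by genes called higher, called lower and not called. SLC7A11 did not share it, with 0.39, 0.04 and -0.43. SLC38A2 was closer to the reverse, with 0.09, 0.31 and -0.40. SLC7A6 and SLC7A1 stayed within 0.10 of their means. The summed TPM of listed genes, as a share of the full scale, had the order of SLC3A2 across the DMSO libraries, and its part in these deviations was not tested. In treated libraries the deviations of SLC3A2, SLC7A5 and SLC7A1 stayed within 0.04, and those of SLC7A11 reached -0.17.

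**Figure D5:**
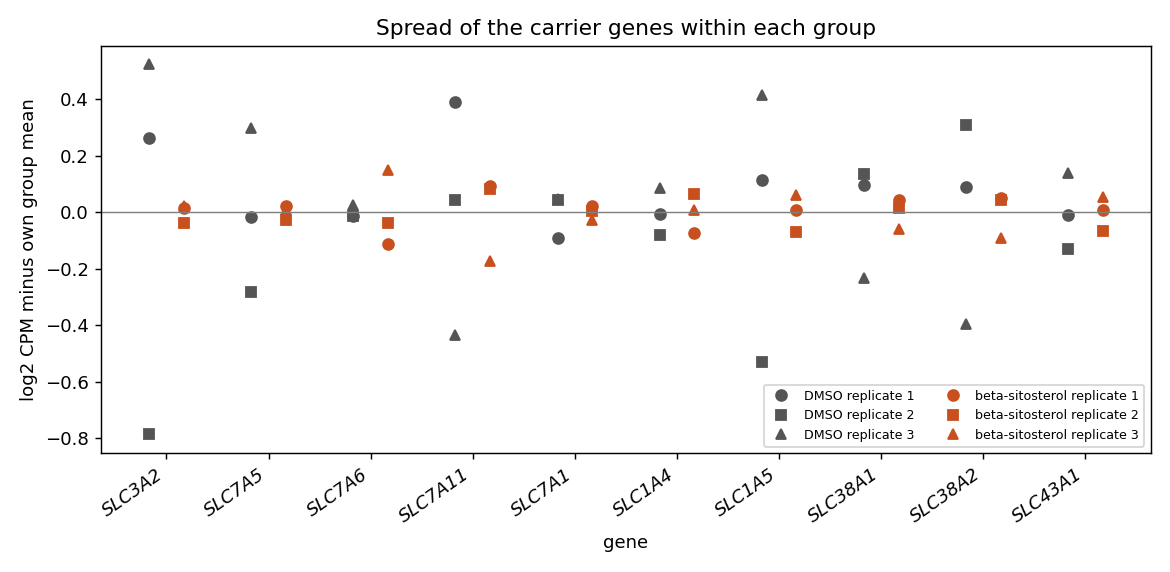
Log2 CPM of each gene minus the mean of its own group, for the 3 DMSO (grey) and 3 beta-sitosterol (orange) libraries. SLC3A2 and SLC1A5 are lowest in DMSO replicate 2 (-0.79 and -0.53) and highest in replicate 3, SLC7A11 and SLC38A2 are lowest in DMSO replicate 3, and treated libraries reach less far from 0 for every gene but SLC7A6.

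Genes with the pattern most like that of SLC3A2 were MYL6, LIMD2 and TMEM14C, at differences of 0.04, 0.07 and 0.07 log2 units over the 6 libraries. MYL6 went from 187 ± 80.0 to 545 ± 16.6 CPM, also with a wide spread in DMSO. For SLC7A11 they were RSL24D1, TMEM126B and SEC61A2 (0.05, 0.06 and 0.07), and for SLC7A5 LRRC14, MAP3K11 and DGCR2 (0.04 each). SLC7A1 and SLC7A6 were the members nearest to SLC7A5, at 0.22 and 0.23.

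Further carriers and the factors known to act on the members were read from lists drawn up with earlier results known. Over all tested genes 19.0% were called higher and 21.8% lower, and no list was tested as a set. Of 6 other chains of heteromeric transporters, only SLC7A7 passed the filter, and it rose from 16.9 ± 2.58 to 24.3 ± 0.48 CPM (edgeR adjusted p = 0.019). That call was lost under 6 of 15 alternatives. These were without DMSO replicate 1 (edgeR adjusted p = 0.063), without treated replicate 1, 2 or 3 (0.080, 0.074 and 0.066), and log2(TPM + 1) and log2(TPM + 0.1) (limma adjusted p = 0.515 and 0.507). Of 20 other plasma membrane carriers 4 were tested. SLC38A5, a glutamine carrier, rose 2.08 ± 0.17 log2 units, to 12.03 ± 0.86 CPM from 2.85 ± 0.38 CPM in DMSO (edgeR adjusted p = 1.5e-04), and SLC1A3, a glutamate carrier at under 2 CPM, rose too. SLC6A6, for taurine, fell from 92.9 ± 4.34 to 71.3 ± 0.96 CPM and SLC43A2, for large neutral amino acids, from 68.8 ± 20.4 to 45.7 ± 1.49 CPM (edgeR adjusted p = 0.022 and 0.049). The call of SLC43A2 was lost under 10 of 15 alternatives and that of SLC6A6 under 6, those without each treated library among them; of this list 0 genes were called lower without treated replicate 1, 2 or 3, and 1 was called higher without DMSO replicate 1 or treated replicate 1 or 2.

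The 3 factors differed. ATF4 stood at 1388 ± 164 and 1333 ± 8.91 CPM (log2 fold change -0.06 ± 0.12, edgeR adjusted p = 0.73) and NFE2L2 at 76.1 ± 27.5 and 72.6 ± 4.36 CPM (-0.07 ± 0.23, adjusted p = 0.83), while MYC fell by 1.52 ± 0.21 on the log2 scale. NFE2L2 stood at 65.7, 107 and 55.3 CPM in DMSO replicates 1, 2 and 3, and without DMSO replicate 2 its log2 fold change turned to 0.26 (edgeR adjusted p = 0.0501). That of ATF4 turned to 0.07 without DMSO replicate 3 (edgeR adjusted p = 0.598). MYC stood at 407, 724 and 476 CPM in DMSO replicates 1, 2 and 3. Its log2 fold change was -1.25 without DMSO replicate 2. RNA of ATF4 and NFE2L2 does not measure their proteins, which are largely controlled after transcription. Of 23 tested regulators and targets of the amino acid response, 5 rose (ATF3, PPP1R15A, CTH, PSAT1 and PYCR1) and 1, ATF5, fell. The calls of CTH and ATF5 were lost on log2(TPM + 1) and log2(TPM + 0.1). Among all tested genes 19.0% were called higher and 21.8% lower. ATF3 and PPP1R15A, both stress response genes, had log2 fold changes of 2.63 ± 0.23 and 1.13 ± 0.12. The other 17 did not pass, among them TRIB3 (0.05 ± 0.20), CHAC1 (0.12 ± 0.25), ASNS (0.23 ± 0.16) and SESN2 (0.12 ± 0.16). These 4 were named after their values were seen, and known ATF4 targets stand both among them and among the genes that rose. Without treated replicate 1, 2 or 3 the list had 3 higher genes, and without DMSO replicate 2 it had 2 lower.

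Of 18 genes of cystine use and the NRF2 response, all tested, 12 rose and 0 fell by edgeR, beside 19.0% and 21.8% of all tested genes. On this list 0 were lower at an unadjusted p under 0.05, and 0 by DESeq2 or limma-voom, but 1 was lower without DMSO replicate 2. It had 11 higher genes without DMSO replicate 1 and 10 without treated replicate 1, 2 or 3. GCLM, a subunit of the enzyme that makes the glutathione precursor, rose 1.40 ± 0.15 log2 units, to 45.2 ± 6.41 CPM from 17.1 ± 1.23 CPM in DMSO (edgeR adjusted p = 3.1e-04). GGT1, which cleaves extracellular glutathione, rose from 2.82 ± 0.52 to 10.8 ± 0.63 CPM, GPX4, which reduces lipid peroxides, from 124 ± 14.4 to 241 ± 3.60 CPM and TXN, thioredoxin, from 128 ± 2.07 to 241 ± 13.9 CPM. The calls of GPX4 and TXN were lost on log2(TPM + 1) and log2(TPM + 0.1). SLC7A11 lay beside GCLM in size of change, at 1.28. The 12 ran from 0.34 (GCLC) to 3.70 (OSGIN1, which stood at only 0.34 ± 0.06 CPM in DMSO). The other 6 were not called: NFE2L2 (-0.07), KEAP1 (-0.25), BACH1 (0.14), GSR (-0.03), SRXN1 (-0.03) and SLC48A1 (-0.07). Of 9 tested genes of the MYC network, 5 fell and 1, MXD1, rose, beside the same shares of all tested genes. This list had 2 higher without DMSO replicate 3. MLXIP, MNT and MAX had log2 fold changes of -1.45 ± 0.11, -1.32 ± 0.14 and -0.55 ± 0.12.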

How the data were processed

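RNA of 6 libraries (3 DMSO, 3 beta-sitosterol) was read from a count table and a TPM table of the whole series. The deposited counts are whole, unnormalized reads per gene. The TPM values were scaled by the authors for gene length and library, per the file headers and values. Per the submitters' processing notes the tools were StringTie 2.2.1, featureCounts 2.0.1, STAR 2.7.10 and fastp 0.23.2, with GRCh38; the sources used here do not give the annotation, strand setting or handling of multi-mapping reads. Of 65807 rows, 61 that repeated a symbol were dropped. For genes with 50 or more counts in a library, count over TPM was a gene constant times a library constant, within 1%.

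Counts were tested in R 4.3.3 with edgeR 4.0.16 (quasi-likelihood F test, TMM, filterByExpr, treatment as only term, two-sided, Benjamini-Hochberg over 11525 genes, threshold 0.05) and the procedure was tested on simulated data. SE was taken as |log2 fold change| divided by √F. Log2 CPM used a prior count of 2. Members and lists were chosen with earlier results of these data known. Named genes are the 10 members, up to 4 called genes per list with a mean of at least 5 CPM by smallest p, ATF4, NFE2L2 and MYC, and 3 genes of most like pattern for SLC3A2, SLC7A11 and SLC7A5; others were named after their values were seen. Positions are GENCODE v29 (GRCh38). The alternatives were RLE factors, library totals, no filter, at least 1 CPM in 3 libraries, limma-voom (limma 3.58.1), DESeq2 1.42.0, log2(TPM + 1), log2(TPM + 0.1), a replicate block and each library left out. With 3 against 3 an exact permutation test cannot go below p = 0.1, so none was run. Light chain proteins were not compared.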

Additional observations from a re-analysis of the deposited data

How the results depend on the processing

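The count of genes past the threshold was 4697, and 2939 and 2935 on log2(TPM + 1) and log2(TPM + 0.1). On both TPM scales 1 member was called higher in place of 3, and 3 lower in place of 4. SLC3A2, SLC43A1 and SLC38A1 lost the call, with log2 fold changes of 1.36, 0.58 and -0.62 on log2(TPM + 1). On log2(TPM + 1) the split was 713 higher and 2226 lower against 2185 and 2512, and the median of all genes lay at -0.19 against -0.04. Leaving out 1 library gave 3094 to 6640 calls, the most without DMSO replicate 2. SLC7A5, SLC7A11, SLC7A1 and SLC7A6 kept direction and call under all 15 alternatives. SLC38A1 lost its call under 10, among them RLE factors, library totals and the leaving out of DMSO replicate 1 or any treated replicate. With the replicate block 4743 genes were called, and 3 members higher and 3 lower. Same-numbered libraries had correlations of deviations across genes of 0.04, 0.10 and 0.15, and each library correlated best with its own number. These small values do not settle whether the numbers pair the libraries. The labels name no pairing, and the main fit used none. The TPM ratio changes of SLC3A2 to SLC7A5 and SLC7A11 moved by less than the DMSO spread without each library. Raw count ratios are no check of these changes. They had to give the same, since count over TPM was a gene constant times a library constant. At 10.5 to 18.7 CPM SLC7A11 rests on the fewest reads of the members in DMSO.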

Other observations

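Lysosomal and other internal amino acid carriers were higher in 4 of 10 tested genes and lower in 1, beside 19.0% and 21.8% of all tested genes. SLC38A9, a lysosomal arginine sensor upstream of mTORC1, rose from 14.3 ± 1.17 to 21.7 ± 2.38 CPM (edgeR adjusted p = 0.0098), and MFSD12, needed for cysteine import into lysosomes, from 51.8 ± 8.26 to 71.2 ± 3.41 CPM (0.030). The call of MFSD12 was lost under 6 of 15 alternatives (without DMSO replicate 1 or treated replicate 1, 2 or 3, and on both TPM scales), and that of SLC38A9 under 3 (without treated replicate 2 and on both TPM scales). SLC38A7, a lysosomal glutamine carrier, fell from 7.28 ± 0.26 to 4.47 ± 0.46 CPM (0.0083). Without treated replicate 1, 2 or 3 the list had 2 higher genes, without treated replicate 2 it had 0 lower, and without DMSO replicate 2 or 3 it had 2 lower.

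Genes of leucine sensing and mTORC1 control, to which the leucine brought in by SLC7A5 is known to signal, were lower in 8 and higher in 5 of 25 tested. Among all tested genes 21.8% were called lower and 19.0% higher. RPTOR and MTOR, of the kinase complex, fell from 92.2 ± 11.3 to 32.3 ± 1.94 CPM and from 223 ± 6.42 to 147 ± 4.86 CPM. NPRL3 and DEPDC5, of the GATOR1 complex that restrains it, fell as well, with log2 fold changes of -1.16 ± 0.16 and -0.89 ± 0.14. RRAGA, RRAGB, RRAGD, LAMTOR2 and LAMTOR4 rose. Of the other Rag and Ragulator genes on the list, LAMTOR1 fell (edgeR adjusted p = 0.036), to 50.7 ± 1.98 CPM from 65.6 ± 6.17 CPM in DMSO. RRAGC, LAMTOR3 and LAMTOR5 were not called (edgeR adjusted p = 0.11, 0.21 and 0.081). These genes were named after their values were seen. Without DMSO replicate 2 the list had 9 higher genes, and without treated replicate 1, 2 or 3 it had 4 lower.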
